A study of Mus musculus with 2 samples.

Results

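The TNF superfamily pairs ligands with cell surface receptors, and it was followed here in livers of BALB/c nude mice, taken whole at day 3 and at day 0 of a 70% partial hepatectomy. Its genes were taken from the array by symbol. They were the numbered Tnfsf ligands and Tnfrsf receptors, Tnf, the lymphotoxin genes Lta and Ltb, Ltbr, Fas, Fasl, Cd40 and Cd40lg. The numbered Traf adaptors, their interactors and the Tnfaip genes, named for induction by TNF, completed the list. The array held 51 such genes on 86 probe sets, of 18193 named genes on 34945 probe sets. The list, called the family below, was drawn by name and not by a cut on any measured value. It was chosen with earlier results of these data known, and some Traf3ip and Tnfaip genes share only the name. Tnfsf12, Tnfsf13, Tnfsf15, Tnfsf18, Tnfrsf26, Traf3 and Tnfaip8l3 had no probe set with a single symbol and were not analysed here.

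The ligands are mostly trimeric membrane proteins, some of them shed, that bind receptors with cysteine-rich repeats. Receptors with a death domain can recruit FADD and caspase-8 or the TRADD and RIPK1 complex. Many of the others, though not the decoy receptors, bind TRAF adaptors directly and activate NF-kB and JNK. In mouse liver, TNF acting through its receptor TNFR1 helps to prime hepatocytes for division after partial hepatectomy, Fas can trigger hepatocyte death, and TWEAK acts through Fn14, the product of Tnfrsf12a, on progenitor and other liver cells.

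There was 1 array for day 3, labelled as active regeneration, and 1 for day 0, labelled as the control. Nude mice lack a thymus and have few mature T cells, which holds for both arrays. The labels give neither age nor sex nor the number of animals behind a sample, and sham operation was not analysed here. Samples were not replicated, so no test was made and neither p-values nor standard errors are given. Day, surgery and animal cannot be told apart.

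Values are MAS5 signals, the brightness of a probe set on a linear scale. Signals were compared above a common floor of 68.3, the higher of the array medians (68.3 at day 3 and 67.6 at day 0). Each gene was represented by its main probe set, the one with the highest mean log2 signal, and a gene under the floor on 1 array has only a bound (written "at least"). All 7 hepatocyte markers were above the floor on both arrays, with summed signals of 224828 at day 3 and 291486 at day 0. The poly-A spikes, control RNAs of the labelling step, had a higher 3' to 5' signal ratio on the day 3 array in all 8 pairs, by 1.32 to 2.90 times. The log2 ratio of day 3 over day 0 had a median of −1.20 over the 5' spike probe sets and −0.12 over the 3' ones. Whether this reached any gene below was not tested. In whole liver, fewer cells of a type and less RNA per cell cannot be told apart.

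The largest fold difference among the analysed family genes was that of Tnfrsf12a, higher at day 3. The deubiquitinase gene Tnfaip3 and the apoptosis regulator gene Tnfaip8 were also higher at day 3. The ligand gene Tnfsf10 was lower. Apart from these and Tnfrsf21, no analysed family gene passed 2-fold on its main probe set. RefSeq start-site windows (mouse GRCm38.p6, strain C57BL/6J, 250 bases before to 50 after the start) were found for 41 of the 51 genes. Those of Tnfrsf12a (chr17:23677400-23677699, minus strand), Tnfaip3 (chr10:19015361-19015660, minus strand) and Tnfsf10 (chr3:27316827-27317126, plus strand) are shown for 3 of the 5 genes past 2-fold, and Tnfrsf21 and Tnfaip8 are named only. That of Ltb (chr17:35194257-35194556, plus strand) is shown because it holds the letters of an NF-kB motif (GGG, any 2 bases, TTTCC). Capitals mark matches on either strand to this motif, to the AP-1 letters TGANTCA or to TATAAA.
Tnfrsf12a: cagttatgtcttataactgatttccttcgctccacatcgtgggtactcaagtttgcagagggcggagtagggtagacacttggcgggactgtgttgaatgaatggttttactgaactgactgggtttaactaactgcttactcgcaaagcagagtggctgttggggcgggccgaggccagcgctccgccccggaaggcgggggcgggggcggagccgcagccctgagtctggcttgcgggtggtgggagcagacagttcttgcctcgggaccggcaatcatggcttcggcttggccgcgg
Tnfaip3: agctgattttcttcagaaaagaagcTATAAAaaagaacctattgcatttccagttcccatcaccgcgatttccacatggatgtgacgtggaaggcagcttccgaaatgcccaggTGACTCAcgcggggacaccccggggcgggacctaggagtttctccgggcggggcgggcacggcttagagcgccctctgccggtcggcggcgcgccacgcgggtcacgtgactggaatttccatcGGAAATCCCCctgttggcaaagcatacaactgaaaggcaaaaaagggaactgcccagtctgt
Ltb: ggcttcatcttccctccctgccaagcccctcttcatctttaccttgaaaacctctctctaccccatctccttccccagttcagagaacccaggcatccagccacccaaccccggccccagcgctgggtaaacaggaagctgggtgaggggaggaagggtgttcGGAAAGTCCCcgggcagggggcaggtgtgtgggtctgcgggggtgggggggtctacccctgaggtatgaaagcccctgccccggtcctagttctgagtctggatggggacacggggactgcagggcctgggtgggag
Tnfsf10: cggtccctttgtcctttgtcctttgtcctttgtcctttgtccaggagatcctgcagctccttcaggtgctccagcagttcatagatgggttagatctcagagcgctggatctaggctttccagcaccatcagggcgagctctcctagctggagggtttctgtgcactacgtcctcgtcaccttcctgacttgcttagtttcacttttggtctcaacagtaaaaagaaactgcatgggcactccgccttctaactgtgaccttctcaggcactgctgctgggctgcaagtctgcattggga

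The Tnfaip3 window held all 3 sets of letters, TATAAA with its left end 225 bases before the start (−225) and the AP-1 letters at −136. Its NF-kB match lay on the opposite strand with its left end 12 bases before the start (−12). The Ltb window held the NF-kB letters at −87, also on the opposite strand, and no match to the others. No matches overlapped, and none was found in the windows of Tnfrsf12a and Tnfsf10. A second window of Tnfaip3 (chr10:19011914-19012213, minus strand) had none either. The NF-kB letters stood in 5 of 46 windows of the family (those of Ltb, Tnfaip3, Tnfrsf25, Tnfrsf9 and Traf2), and in 1.63% of all 32851 windows. The AP-1 letters stood in 8 of the 46 and 7.81% of all, and TATAAA in 6 of the 46 and 13.6% of all. These matches are descriptions of letters, chosen with the windows in view, and say nothing of binding.

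Of the 51 genes, 32 were above the floor on at least 1 array and 19 were under it on both. Of these 32, 5 were above it only at day 3, 4 only at day 0 and the other 23 on both arrays. At day 3, 4 genes had at least 2-fold higher signal (Tnfrsf12a, Tnfaip8, Tnfaip3 and Tnfrsf21), or 12.5% of the 32, beside 12.9% of all 12634 genes analysed. Tnfsf10 alone was at least 2-fold lower, beside 5.62% of all genes. The share past 2-fold was thus near that of all genes in the upward direction, and the family as a whole did not stand apart by this count. The median log2 ratio of the 32 was 0.37, beside 0.08 for all genes, and 22 of the 32 lay above 0, beside 55.1% of all genes. The family median stayed above 0 under 4 other scalings, from 0.17 after quantile normalisation to 0.63 after scaling to the hybridisation spikes, where that of all genes was 0.36. At 1.5-fold, 10 of the 32 were higher and 1 was lower, beside 24.0% and 14.2% of all genes. At 4-fold, 3 were higher (Tnfrsf12a, Tnfaip8 and Tnfaip3) and none lower, beside 3.27% and 0.76% of all genes. Tnfaip3 and Tnfaip8 were barely past 4-fold, with log2 ratios of 2.01 and 2.06. After quantile normalisation they had 1.82 and 1.88, short of 4-fold, and after spike scaling 2.31 and 2.35.

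**Figure D1:**
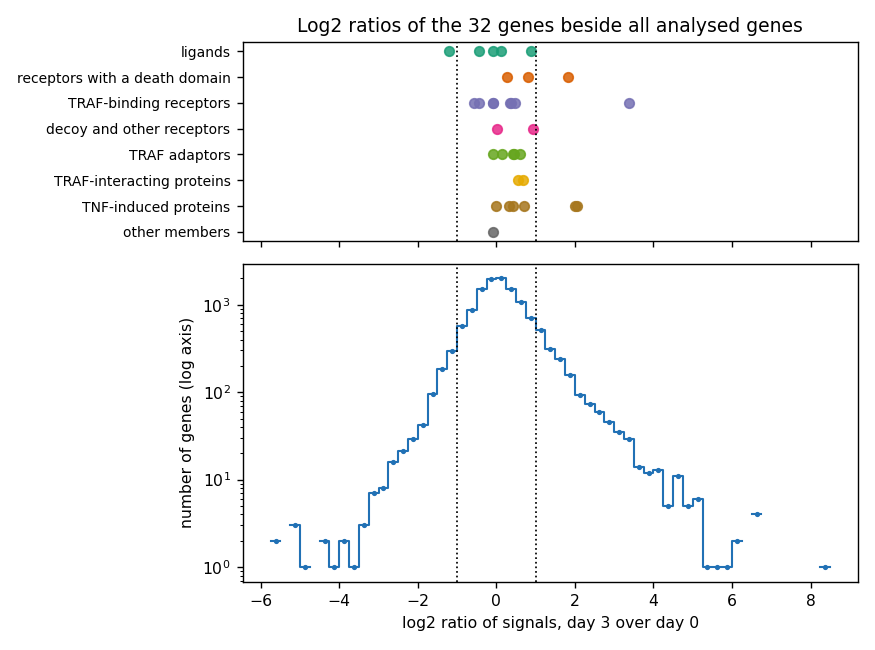
The upper panel plots the log2 ratio of signals (day 3 over day 0) of the 32 analysed genes by role, and the lower panel the number of all 12634 analysed genes in bins of that ratio on a log axis. Dotted lines mark 2-fold, and the points past the right line are Tnfrsf21 (1.82), Tnfaip3 (2.01), Tnfaip8 (2.06) and Tnfrsf12a (3.37).

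Among the ligands, 12 genes were on the array and 5 were above the floor on an array. Tnfsf10, which encodes the death ligand TRAIL, had a signal of 175 at day 3 and 404 at day 0, or 2.30-fold lower. A second probe set gave 113 at day 3 and 275 at day 0 (log2 ratio −1.29), while one near the floor gave 68.5 and 72.4 (−0.08). Both brighter probe sets were thus lower at day 3, and the dim one differed little. The gene's log2 ratio was −0.91 after spike scaling and −0.86 as a mean over probe sets, both short of 2-fold.

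Ltb, the membrane-anchoring subunit of lymphotoxin, had 128 at day 3 and 69.6 at day 0 (1.83-fold higher, log2 ratio 0.87), the day 0 value being barely above the floor. Tnf itself had 73.7 at day 3 and 15.8 at day 0, so that its bound was only at least 1.08-fold higher. The measured difference of Tnf therefore depends on how low signals are treated, and its log2 ratio was 1.90 under a floor at the 25th percentile. Cd40lg, a ligand of activated T cells, had 51.7 at day 3 and 92.4 at day 0 (at least 1.35-fold lower). Tnfsf13b, which encodes the B cell survival factor BAFF, had 35.0 at day 3 and 72.1 at day 0 (at least 1.06-fold lower).

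The other 7 ligand genes, Fasl, Lta, Tnfsf4, Tnfsf8, Tnfsf9, Tnfsf11 and Tnfsf14, stayed under the floor on both arrays, with signals of at most 39.5 at day 3 and 67.8 at day 0 (both Tnfsf8). Among 10 markers of T and NK cells on the array, 7 were under the floor on both arrays, among them Cd3d, Cd3e, Cd3g and Cd4, and the summed signal of the 10 was 525 at day 3 and 342 at day 0. Without Cd28, which had 234 at day 3 and 6.56 at day 0, the sum was 291 at day 3 and 336 at day 0, and Nkg7 had 39.3 at day 3 and 94.4 at day 0. Tnfsf13os, a transcript on the strand opposite Tnfsf13 by its symbol, had 7.41 at day 3 and 72.1 at day 0 (at least 1.06-fold lower).

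Of 5 receptors with a death domain on the array, 3 were above the floor, and all 3 had a positive log2 ratio. Tnfrsf1a, the gene of TNFR1, had 2876 at day 3 and 2376 at day 0, or 1.21-fold higher. Fas, the death receptor of Fas ligand, had 1194 at day 3 and 684 at day 0 (1.74-fold higher), and passed 2-fold only with spike scaling, among the settings tried (log2 ratio 1.09). Neither gene reached 2-fold as deposited.

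Tnfrsf21, which encodes death receptor 6, had 777 at day 3 and 219 at day 0 on its main probe set, or 3.54-fold higher. Its other probe set had 162 at day 3 and 149 at day 0, a log2 ratio of 0.12. The main one is marked as shared between transcripts, so the call ended when shared probe sets were left out. The mean over probe sets gave a log2 ratio of 0.97, and a floor at the 75th percentile gave 0.87, both short of 2-fold. Tnfrsf10b, the mouse receptor of TRAIL, reached at most 65.2 at day 3 and 10.8 at day 0, under the floor on both. Tnfrsf25, death receptor 3, was also under it, with 30.8 at day 3 and 4.72 at day 0. With no floor both Tnfrsf10b and Tnfrsf25 were at least 2-fold higher at day 3, and Tnfrsf10b also under a floor at the 25th percentile.

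Of 14 TRAF-binding receptors, 8 were above the floor and 1 was past 2-fold. Tnfrsf12a encodes Fn14, the small receptor of the ligand TWEAK. Its main probe set had 2265 at day 3 and 219 at day 0, or 10.3-fold higher. The second probe set had 1331 at day 3 and 85.6 at day 0 (log2 ratio 3.96, beside 3.37 for the main one). Both probe sets were above the floor on both arrays and differed by more than 8-fold between the days. Under the 10 alternatives to scaling, floor and probe set choice the log2 ratio lay between 2.42 and 3.66.

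Ltbr, the receptor of lymphotoxin and LIGHT, had 3238 at day 3 and 2525 at day 0 (1.28-fold higher). Tnfrsf1b, the gene of TNFR2, had 492 at day 3 and 670.2 at day 0 (1.36-fold lower). The TNF receptor genes Tnfrsf1a and Tnfrsf1b thus had log2 ratios of opposite sign, 0.28 and −0.45, both within 2-fold. Cd40, an activating receptor of B cells and macrophages, had 95.1 at day 3 and 53.7 at day 0, at least 1.39-fold higher, and was above the floor at day 3 only on all 3 of its probe sets.

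Tnfrsf13c, the BAFF receptor of B cells, had 24.7 at day 3 and 102.0 at day 0, at least 1.49-fold lower. Of 6 B cell markers on the array, none was 2-fold higher at day 3 and Ighm was 3.94-fold lower (202 at day 3 and 796 at day 0). Summed signals were 480.5 at day 3 and 1174 at day 0, and Ighm made most of this difference. Cd22 had 114 at day 3 and 111 at day 0, Cd79b 69.2 and 101, and Ms4a1 57.8 and 103. Cd79a and Pax5 were under the floor on both arrays. The part of B cells in the Tnfrsf13c value was not tested. Tnfrsf4, the co-stimulatory receptor OX40, had 89.0 at day 3 and 63.2 at day 0 (at least 1.30-fold higher), and Tnfrsf9, 4-1BB, had 89.1 at day 3 and 95.2 at day 0.

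Tnfrsf19, which encodes TROY, had 166 at day 3 and 177 at day 0 on its main probe set and 85.5 and 92.0 on another. The last had 62.3 at day 3 and 306 at day 0, at least 4.48-fold lower (log2 ratio −2.16), so the probe sets of this gene disagreed. The receptor genes Tnfrsf8, Tnfrsf11a, Tnfrsf13b, Tnfrsf14, Tnfrsf17 and Tnfrsf18 were under the floor on both arrays, with at most 57.8 at day 3 (Tnfrsf13b) and 64.3 at day 0 (Tnfrsf14).

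Among the decoy receptors, Tnfrsf11b, the gene of osteoprotegerin, a soluble decoy of RANK ligand, had 130.0 at day 3 and 41.9 at day 0 (at least 1.90-fold higher). Its other probe set was under the floor, with 3.58 at day 3 and 51.0 at day 0. RANK ligand (Tnfsf11) and its receptor RANK (Tnfrsf11a) were under the floor on both arrays, as was the decoy receptor gene Tnfrsf23. Tnfrsf22, a mouse decoy receptor of TRAIL, had 68.6 at day 3 and 54.2 at day 0, barely above the floor at day 3.

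**Figure D2:**
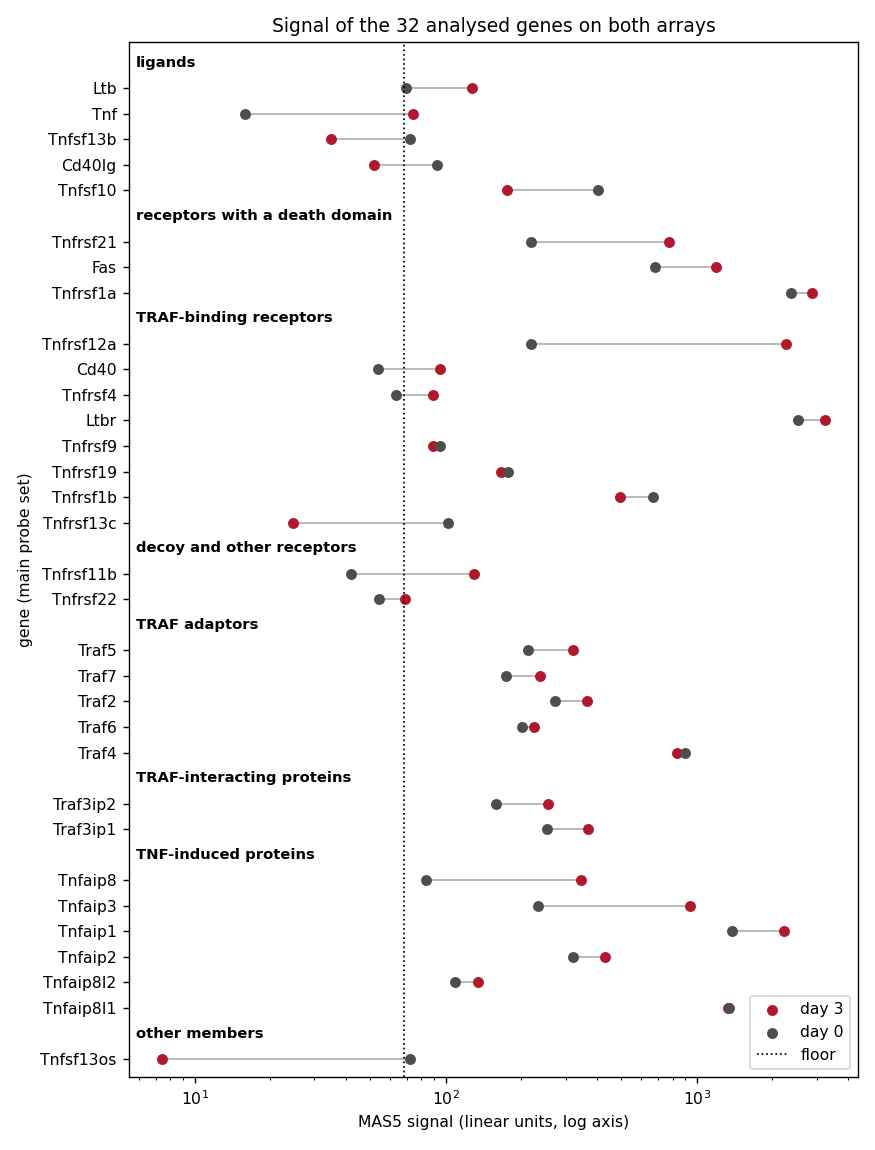
Each row is one of the 32 analysed genes, grouped by role, with the MAS5 signal of its main probe set at day 3 (red) and day 0 (grey) on a log axis, and the floor of 68.3 as a dotted line. Tnfrsf12a has the widest gap among genes with both points right of the floor, at 2265 and 219.

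The TRAF adaptors, which carry receptor signals to the kinases of the NF-kB and JNK pathways, differed little. None of the 5 analysed of 6 on the array passed 2-fold, and their log2 ratios ran from −0.10 to 0.60. Traf2, which binds many receptors of the family, had 366 at day 3 and 273 at day 0 (1.34-fold higher). Traf5 had 321 at day 3 and 212 at day 0 (1.51-fold higher). Traf6, which also serves Toll-like and interleukin 1 receptors, had 225 at day 3 and 202 at day 0, and Traf7 had 237 and 174. Traf1, an adaptor itself induced by NF-kB, was under the floor on both arrays with at most 5.88 at day 3 and 20.7 at day 0.

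Traf4 disagreed between its probe sets. Its main one had 836 at day 3 and 895 at day 0, and the other had 157 at day 3 and 62.3 at day 0 (at least 2.30-fold higher). The TRAF interactor Traf3ip2, the Act1 adaptor of interleukin 17 receptors, had 254 at day 3 and 158 at day 0 (1.61-fold higher). Traf3ip1, a ciliary transport protein gene, had 370.1 at day 3 and 253 at day 0 (1.46-fold higher), and Traf3ip3 was under the floor.

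Of the genes named for induction by TNF, 2 of the 6 analysed were at least 2-fold higher at day 3 and none was 2-fold lower, beside 12.9% and 5.62% of all genes. Their median log2 ratio was 0.56 beside 0.08 for all genes. Tnfaip3 encodes A20, a ubiquitin-editing enzyme that restrains NF-kB. It had 943 at day 3 and 233 at day 0, or 4.04-fold higher, and its other probe set was under the floor with 46.5 at day 3 and 21.9 at day 0. Tnfaip8, a regulator of apoptosis, had 347 at day 3 and 83.4 at day 0 (4.16-fold higher), with its other probe set at 6.57 and 12.9. Each of these values thus rests on 1 probe set, and the day 0 signal of Tnfaip8 was near the floor. Under a floor at the 75th percentile Tnfaip3 had a log2 ratio of 1.15 and Tnfaip8 was not analysed.

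Tnfaip1, an adaptor of a cullin-3 ubiquitin ligase, had 2227 at day 3 and 1379 at day 0, or 1.62-fold higher, and its 3 probe sets lay between 0.61 and 0.72 on the log2 scale. Tnfaip2 had 433 at day 3 and 322 at day 0 on its main probe set (1.34-fold higher), and 551 and 204 on another (log2 ratio 1.43). The relatives of Tnfaip8 did not follow it: Tnfaip8l1 had 1336 at day 3 and 1342 at day 0, and Tnfaip8l2, a negative regulator of immune cells also called TIPE2, had 135 and 108. Tnfaip6, which encodes the hyaluronan-binding protein TSG-6, was under the floor on both arrays, with 45.7 at day 3 and 21.1 at day 0.

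Several probe sets above the floor were available for 12 of the 32 genes. For 5 of them, Tnfrsf21, Tnfaip2, Traf4, Tnfrsf19 and Tnfsf10, the probe sets fell on different sides of 2-fold. By probe set, 7 of 48 above the floor were at least 2-fold higher at day 3, beside 11.2% of all probe sets, and 3 were at least 2-fold lower, beside 6.07%. Over all genes with a pair of probe sets above the floor on both arrays, the SD of the log2 ratio was 0.44 for a single probe set (n = 4380 genes), which covers differences between probe sets and not between animals. Over the 7 such genes of the family it was 0.60.

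**Figure D3:**
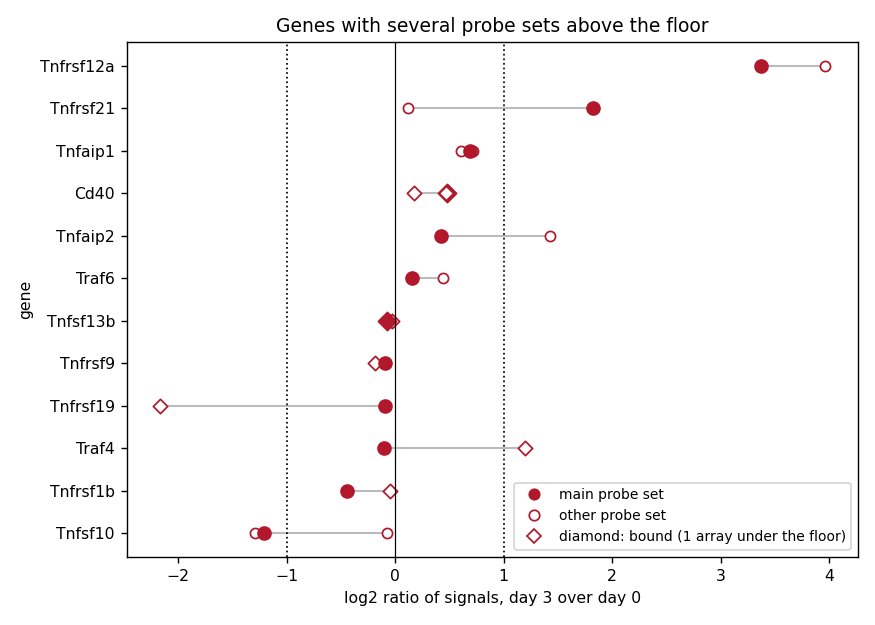
For the 12 genes with several probe sets above the floor, each point is the log2 ratio (day 3 over day 0) of 1 probe set, with the main one filled, bounds as diamonds and 2-fold as dotted lines. Both points of Tnfrsf12a lie past 3, while those of Tnfrsf21 lie at 1.82 and 0.12 and those of Tnfrsf19 reach −2.16.

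Genes of the pathway outside the family were taken from lists of names, also chosen with earlier results of these data known. Of 7 superfamily genes with other symbols, 3 were above the floor. Eda2r, a receptor of ectodysplasin A2, had 318 at day 3 and 134 at day 0 (2.37-fold higher, and under 2-fold after quantile normalisation). Ngfr, the p75 neurotrophin receptor gene, had 177 at day 3 and 110.1 at day 0, Relt had 36.0 at day 3 and 99.6 at day 0, and Cd27, Cd70, Eda and Edar were under the floor on both arrays.

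Of 19 genes of the receptor complex and death signalling, 1 was at least 2-fold higher and none was lower, beside 12.9% and 5.62% of all genes. The median log2 ratio was 0.04 (beside 0.08 for all genes, and −0.0059 after quantile normalisation, 0.0041 after loess, 0.33 after spike scaling, and −0.03 over genes above the floor on both arrays or with that floor at the 75th percentile). With quantile normalisation or loess 1 gene was 2-fold lower. Mlkl, the effector of necroptosis, was the gene past 2-fold, with 1000.2 at day 3 and 318 at day 0 (3.15-fold higher). Its upstream kinase gene Ripk3 had 103 at day 3 and 24.1 at day 0, at least 1.51-fold higher. The initiator caspase gene Casp8 had 2089 at day 3 and 1987 at day 0, and its inhibitor gene Cflar had 1372 at day 3 and 1334 at day 0, both within 2-fold. Birc3, a ubiquitin ligase of the receptor complex and a target of NF-kB, had 474 at day 3 and 885 at day 0 (log2 ratio −0.90). Adam17, the protease that sheds TNF and its receptors, had 1047 at day 3 and 758 at day 0.

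Of 18 genes of the NF-kB module, 4 were at least 2-fold higher at day 3 and none was lower, beside 12.9% and 5.62% of all genes. Their median log2 ratio was 0.30, beside 0.08 for all genes, and after spike scaling it was 0.59, beside 0.36. The 4 were Nfkb2, the p100 precursor of the non-canonical pathway (388 at day 3 and 88.5 at day 0, 4.39-fold), Nfkbie (2.87-fold), Bcl3 (2.72-fold) and Nfkbiz (2.65-fold), the last 3 encoding inhibitors or nuclear cofactors of the IkB family. Other probe sets of Nfkb2 and Nfkbiz gave log2 ratios down to 0.28 and 0.30, and the count was 2 without shared probe sets and under a floor at the 75th percentile, and 6 under one at the 25th percentile. Nfkbia, the gene of the main cytoplasmic inhibitor, had 7981 at day 3 and 9269 at day 0, and Rela had 3286 at day 3 and 2764 at day 0, both within 2-fold.

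Of 11 JNK module genes, Fos was at least 2-fold higher (308 at day 3 and 116 at day 0, 2.66-fold) and none was lower, beside 12.9% and 5.62% of all genes. The median log2 ratio was 0.22, and the count of higher genes was 3 after spike scaling and 0 of 9 under a floor at the 75th percentile. The phosphatase gene Dusp1 had 1882 at day 3 and 3584 at day 0 (log2 ratio −0.93). Of 16 NF-kB target genes above the floor, 6 were at least 2-fold higher and none was lower, beside 12.9% and 5.62% of all genes (median log2 ratio 0.63, beside 0.08). After quantile normalisation, after loess and under no floor 1 target was 2-fold lower, and 2 of 20 were under a floor at the 25th percentile. The count of higher targets was 2 of 6 under a floor at the 75th percentile and 10 of 21 under no floor. The median was 0.37 as a mean over probe sets and 0.89 after spike scaling. The 6 higher targets included the stress response gene Ier3 (at least 6.09-fold), the adhesion molecule genes Icam1 (3.50-fold) and Vcam1 (3.26-fold), and the monocyte chemokine gene Ccl2 (at least 3.32-fold). Of the 16 targets, 4 had a log2 ratio under 0. Selp had 145 at day 3 and 259 at day 0 (log2 ratio −0.84). Sod2, the mitochondrial superoxide dismutase gene, had 9004 at day 3 and 15415 at day 0 (log2 ratio −0.78). Ccl5 had 11.1 at day 3 and 116 at day 0, a bound of −0.76, and Il1b lay at −0.08. The targets were chosen as textbook genes, and other factors also regulate them.

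**Figure D4:**
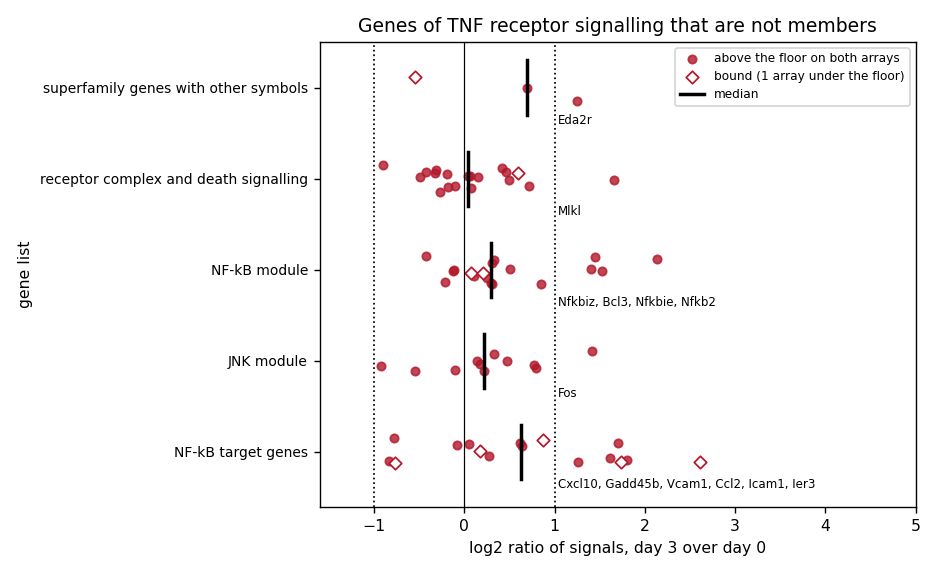
Each point is the log2 ratio (day 3 over day 0) of 1 gene from 5 pathway lists that hold none of the 51, with diamonds for bounds, a black bar for the list's median and dotted lines at 2-fold. Genes past 2-fold are named to the right of the line, and none lies past the left line.

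Markers of several other liver cell types also differed between the arrays. Of 8 Kupffer cell and macrophage markers, 5 passed 2-fold upward, beside 12.9% of all genes. The summed signals of the 8 were 20023 at day 3 and 7618 at day 0. For monocytes and neutrophils the count was 3 of 8 markers on the array (4051 and 1159, with Itgam and Mpo under the floor). Of these sums Lyz2 alone made 2464 and 635, and Ccr2 (log2 ratio −0.09), Csf3r (0.28) and Elane (0.34) lay within 2-fold. For stellate cells the count was 4 of 6 (13364 and 4469). Of these sums Reln alone made 9454 and 3357, and Lrat was 1.22-fold higher. For cholangiocytes the count was 4 of 5 (1304 and 351). Sinusoidal endothelial markers had 0 of 7 past 2-fold in either direction, with sums of 6051 at day 3 and 7766 at day 0. Of these sums Clec4g made 2013 and 3275 and Kdr 964 and 1567. Pecam1 was 1.95-fold and Lyve1 1.91-fold higher, and the median log2 ratio of the 7 was 0.07. Dendritic cell markers had 0 of 6 past 2-fold, with 363 and 428, and Ccr7, Siglech and Xcr1 were under the floor on both arrays. The part of these cells in the values of the family was not tested.

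**Figure D5:**
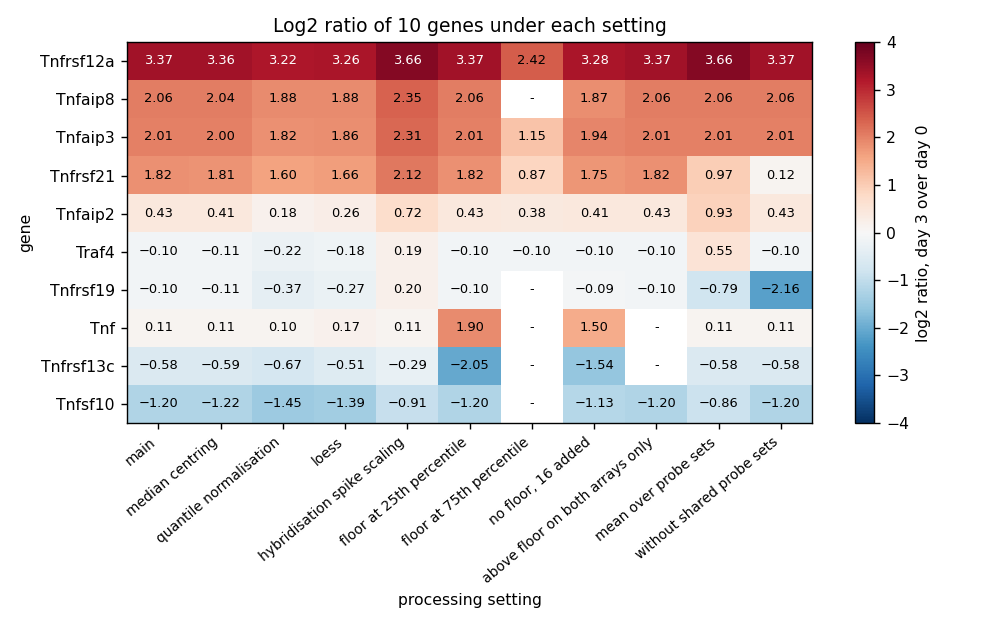
The log2 ratio (day 3 over day 0) of 10 genes, in rows and chosen after their values were seen, is given in each cell for the values as reported (first column) and under 10 other processing settings, with red for higher and blue for lower at day 3 and a dash where the gene was not analysed. Tnfrsf12a stays at 2.42 or above in every column, whereas Tnf and Tnfrsf13c move with the floor. Tnfrsf19 and Traf4 move with the choice of probe set, and Tnfrsf21 with both (0.87 under the 75th percentile floor).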

How the data were processed

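Total RNA of whole liver was labelled and hybridised to an Affymetrix mouse array, 1 array per day, per the labels' protocols. The authors deposited 1 intensity value per probe set and array, linear and not log transformed, from GCOS and MAS5 per the submitters' processing notes. The software versions are not given in the sources used. Each array of 45101 probe sets had a mean of 500.0 after trimming 2% at both ends. The number of arrays limits the precision.

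Gene symbols came from GEO's annotation of the array, and only probe sets with 1 symbol were used. The Entrez IDs of all 51 members matched the RefSeq table, which changed 0 symbols. Signals under the floor (68.3) were set to it before log2, probe sets under it on both arrays were dropped, and 2-fold was the threshold. All members are accounted for. Of the pathway lists, up to 4 genes farthest past 2-fold in each direction are named, and others were named after their values were seen. The members, lists and rules were chosen with earlier results of these data known, the motifs with the promoter windows in view. Steps were tested on simulated data with known ratios set only in genes well above the floor, so recovery of differences near the floor was not tested. Alternatives covered scaling, floor, probe set choice and threshold. Python 3.11.15, pandas 2.3.3 and statsmodels 0.14.6 (loess, fraction 0.3) were used.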

Additional observations from a re-analysis of the deposited data

How the results depend on the processing

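No paired analysis was possible because each day has 1 array, and for the same reason no replicate could be left out. The count of family genes at least 2-fold higher (4) became 9 if the floor was the 25th percentile or if 16 was added in place of a floor, 2 if it was the 75th percentile (11 genes analysed) and 10 at 1.5-fold. This count was 5 under spike scaling, and 3 under the mean over probe sets, removal of shared probe sets and 4-fold. The count of lower family genes (1) became 0 under spike scaling, the 75th percentile floor, the mean over probe sets and 4-fold, and 2 under the 25th percentile floor, no floor and removal of shared probe sets. The family median of 0.37 was 0.17 after quantile normalisation, 0.26 after loess and 0.63 after spike scaling, where that of all genes moved from 0.08 to 0.36. Of all genes, the higher count (1625) became 574 under the 75th percentile floor, 3028 at 1.5-fold and 413 at 4-fold. The lower count (710) became 380 under spike scaling, 1834 and 406 under floors at the 25th and 75th percentile, 1770 under no floor, 1797 at 1.5-fold and 96 at 4-fold. Other floors change which genes are analysed, and the cause of the other moves was not tested. No family gene past 2-fold changed sign under any alternative in which it was analysed. The signal over background limits genes near the floor most: Tnf, Tnfrsf13c and Tnfrsf11b passed 2-fold only under the 25th percentile floor or no floor. The same held for Tnfrsf10b and Tnfrsf13b, for Tnfaip6 under the 25th percentile floor alone and for Tnfrsf25 under no floor alone. Of these genes Tnfrsf13c was lower at day 3 and the others were higher.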
